A study of Mus musculus with 4 samples.

Results

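Axon guidance ligands and receptors are the ephrins and their Eph receptors, the semaphorins with the plexins and neuropilins, the Slits with the Robo receptors, and the netrins with Dcc and the Unc5 receptors. Zeb1 peaks were counted as members when the gene to which the deposited list assigned them carried a name of one of these families, and Slitrk genes were left out. The rule took 123 of 17435 peaks, assigned to 60 of the 12271 gene names in the list. It reads letters only, and so it also took Unc50, an inner nuclear membrane protein outside the guidance families, with 1 peak. Without Unc50 there were 122 peaks at 59 genes, with 53 peaks at genes of ligands and 69 at genes of receptors.

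Guidance receptors on the growth cone of an axon, and on many other migrating cells, read ligands that are held on neighbouring membranes or secreted, and they turn this contact into attraction or repulsion through the actin cytoskeleton. Ephrins and many semaphorins are bound to membranes, whereas Slits, netrins and class 3 semaphorins are secreted. Zeb1 is a zinc finger transcription factor that binds E-boxes of the form CACCTG and is known from epithelial-mesenchymal transition, in which cells lose contacts and become motile.

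Zeb1 was mapped by chromatin immunoprecipitation and sequencing (ChIP-seq) in D3 cells, an established line of mouse embryonic stem cells (mESC). All cells were grown in the ground state (GS) condition, in which PD0325901 at 1 μM inhibits MEK, CHIR99021 at 3 μM inhibits GSK3, and LIF is added at 20 ng/mL. There were 3 Zeb1 ChIP libraries, each made with 8 μg of antibody from chromatin fixed in 1% formaldehyde, and 1 input library, from cells between passages 5 and 8. The comparison is between ChIP and input within 1 cell state, and no cells without Zeb1 were analysed here. For each peak the list gives the reads of the ChIP (treatment reads), those of the input (input reads) and the enrichment, averaged over libraries. The enrichment is the authors' ratio of treatment over input after scaling for mapped reads. A peak had to be found in at least 2 libraries, so a mean need not cover all 3. How many values each mean covers was not analysed here. The libraries cannot be told apart in the list, so the spread between them and a test over samples could not be had. The values below therefore carry no SD. The authors brought all samples to a common depth by drawing 30 M reads from each, and how many of these mapped in each library was not analysed here. A low number of input reads leaves the enrichment of a peak imprecise.

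The sequences below show the letters CACCTG within peaks at the start of guidance genes, since a peak of 1100 to 5500 bp does not by itself show where in it such letters lie. For each of the 4 ligand and receptor systems they come from the 3 promoter peaks with the highest enrichment that held CACCTG on either strand, where a promoter peak has its centre within 5 kb of the transcription start site (TSS). Each line gives the RefSeq genome sequence with its mm10 (GRCm38) position and the strand, written 5′ to 3′ so that the match reads CACCTG, with the match nearest to the centre of the peak in capitals. The Slit2 line is short because it lies in a 5′ UTR.
Epha7, chr4:28815206-28815305, minus strand: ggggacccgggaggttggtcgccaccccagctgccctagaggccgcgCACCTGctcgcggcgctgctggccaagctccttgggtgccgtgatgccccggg
Epha10, chr4:124885675-124885774, plus strand: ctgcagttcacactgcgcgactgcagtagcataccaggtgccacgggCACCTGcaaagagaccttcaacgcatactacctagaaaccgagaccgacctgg
Efna5, chr17:62883429-62883528, minus strand: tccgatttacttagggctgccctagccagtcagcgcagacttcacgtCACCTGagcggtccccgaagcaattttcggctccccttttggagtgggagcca
Sema6c, chr3:95161562-95161661, plus strand: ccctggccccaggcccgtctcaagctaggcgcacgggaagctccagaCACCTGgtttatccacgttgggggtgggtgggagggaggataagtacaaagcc
Sema6d, chr2:124090818-124090917, plus strand: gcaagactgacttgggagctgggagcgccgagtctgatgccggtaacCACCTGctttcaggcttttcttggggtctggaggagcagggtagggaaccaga
Plxnb2, chr15:89174100-89174199, plus strand: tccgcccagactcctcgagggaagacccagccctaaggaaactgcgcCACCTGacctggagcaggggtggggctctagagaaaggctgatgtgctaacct
Slit2, chr5:47983869-47983898, minus strand: ctccgcagcacaCACCTGacggcacaggta
Slit3, chr11:35121835-35121934, minus strand: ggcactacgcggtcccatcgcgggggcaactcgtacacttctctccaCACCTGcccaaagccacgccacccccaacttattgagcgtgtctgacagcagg
Robo1, chr16:72662938-72663037, plus strand: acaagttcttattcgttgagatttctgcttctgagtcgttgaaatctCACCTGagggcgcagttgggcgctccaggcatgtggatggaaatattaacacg
Unc5c, chr3:141464945-141465044, minus strand: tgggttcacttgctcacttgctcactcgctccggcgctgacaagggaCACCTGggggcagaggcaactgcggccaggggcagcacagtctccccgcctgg
Ntn1, chr11:68385865-68385964, minus strand: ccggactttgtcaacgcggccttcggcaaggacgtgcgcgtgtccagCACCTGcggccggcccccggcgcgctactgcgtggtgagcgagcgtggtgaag
Ntn4, chr10:93641459-93641558, minus strand: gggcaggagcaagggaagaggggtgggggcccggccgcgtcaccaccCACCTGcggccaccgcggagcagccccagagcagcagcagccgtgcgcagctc
The matches of Epha10 and Ntn1 lay in coding exons, and those of Epha7, Sema6c, Sema6d, Slit3 and Ntn4 in introns. Those of Efna5, Plxnb2, Robo1 and Unc5c lay upstream of the TSS, between 161 bp for Robo1 and 2162 bp for Efna5. In Ntn4 the match was 16 bp from the centre of the peak, in Epha7 31 bp, and in Efna5 1404 bp. A match is a description of the letters in a window and not a binding site.

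By the RefSeq annotation, 71 protein-coding mouse genes have names that fit the rule, and 60 of them had at least 1 assigned peak (84.5%, 95% Wilson interval 74.3 to 91.1%). Of all 21774 protein-coding genes, 51.4% had one. A promoter peak was assigned to 53 of the 71 (74.6%, interval 63.4 to 83.3%), against 43.5% of all protein-coding genes. Both intervals cover counting error only, and whether genes of like length or like promoter sequence have as many peaks was not tested. Of the 18 genes without a promoter peak, 7 had peaks farther away and 11 had none. Among the guidance families 27 of 35 ligand genes and 25 of 34 receptor genes held a promoter peak. Here and below, the shares of members are set beside those of the list as a description, with no test.

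**Figure D1:**
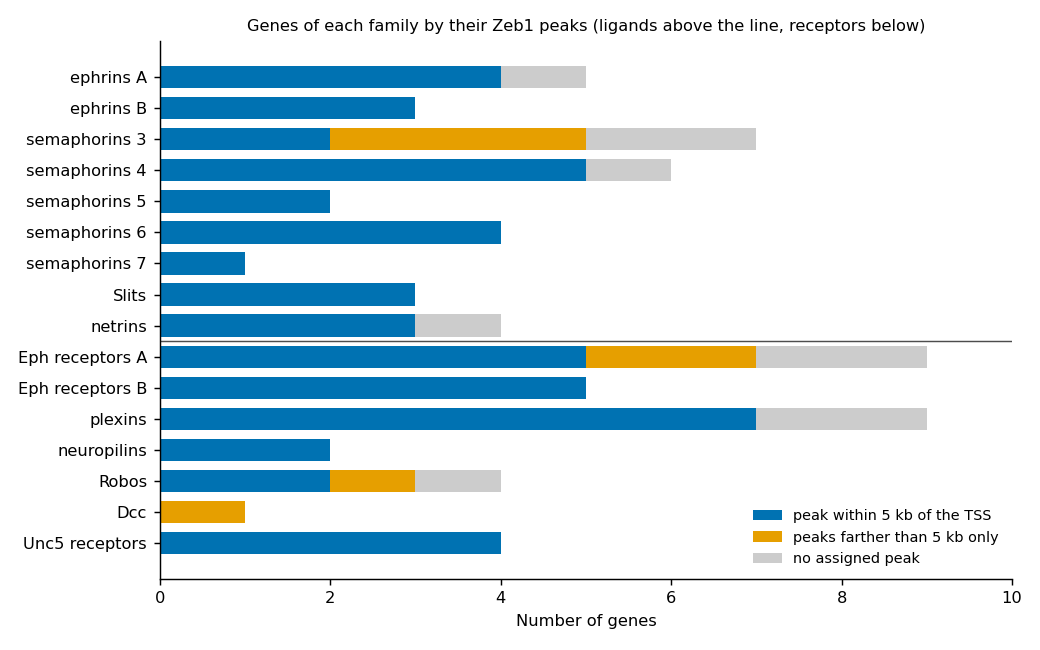
Number of genes in each guidance family with a Zeb1 peak within 5 kb of the TSS, with peaks farther than 5 kb only, and with no assigned peak; bars add up to the genes of the family. Every ephrin B, class 5, 6 and 7 semaphorin, Slit, Eph receptor B, neuropilin and Unc5 gene had a promoter peak, whereas 2 of 7 class 3 semaphorins and 2 of 4 Robo genes did.

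Member peaks had a median enrichment of 6.70, with quartiles of 5.32 and 8.54, beside 6.50 over all peaks. Their median of 47.8 treatment reads was near the 47.4 of all peaks, and both medians of input reads were 16. At promoter peaks alone, the median was 61.2 treatment reads for members and 52.6 for all, with enrichments of 7.04 and 6.74. Promoter peaks of members were also longer, as given below. Farther than 5 kb, the medians were 34.5 treatment reads beside 35.3 on LINE-1 elements and 43.5 beside 40.6 elsewhere. Of the 123 peaks, 63 lay within 5 kb of the TSS (51.2%, interval 42.5 to 59.9%), against 61.4% of all peaks. Here and below, intervals over peaks treat each peak as independent, although a gene can hold several, and so they may be too narrow. Several member genes had many peaks, and 10 of the 60 had at least 4 (16.7%), against 3.46% of all gene names in the list. These 10 were Epha7 with 6, Ephb2 and Unc5d with 5 each, and Efna2, Efnb2, Epha2, Epha6, Epha8, Robo3 and Sema6b with 4 each.

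Among the ligands, the ephrins are short proteins held on the membrane, class A by a lipid anchor and class B by a transmembrane segment. Of the 8 ephrin genes, 7 had a promoter peak, and Efna1 had no assigned peak at all. Efna5, which patterns the map of the retina on its target, had the highest enrichment among promoter peaks of the class A ephrins. Its peak at chr17:62879351-62884800 was 5450 bp long, had its centre 758 bp upstream of the start site, and showed an enrichment of 11 from 130 treatment and 23.9 input reads. Its enrichment ranked 1775 and its treatment reads 476 among all 17435 peaks.

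Efna2, another class A ephrin, had 4 peaks along a gene of only 10.5 kb and its downstream side. The promoter peak at chr10:80178651-80182800, in its first intron, had an enrichment of 4.85 from 61 treatment and 23 input reads. The peak with most reads was not at the promoter but over the last exon, in the 3′ UTR, at chr10:80188251-80191750, with an enrichment of 7.81 from 127 treatment and 34 input reads. Reads were fewer at the remaining peaks of the gene. Farther along the first intron, chr10:80185301-80188100 had an enrichment of 5.30 from 45.5 treatment and 19 input reads. Past the end of the gene, chr10:80196151-80198050 lay 17.6 kb downstream of the TSS and had an enrichment of 10.6 from 46 treatment and 9.50 input reads, so that enrichment was highest at the peak farthest from the TSS.

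Efna3 and Efna4, a pair of class A ephrins, sit beside Efna1 in a cluster of 66.3 kb on chr3. The promoter peak of Efna3 at chr3:89317951-89323450 was the longest of all member peaks, at 5500 bp, and had 132 treatment reads, with 51.9 input reads and an enrichment of 5.11. Efna3 had 2 more peaks toward its 3′ side, with enrichments of 4.55 in its intron 2 and 3.30 beyond its end, which is on the side of Efna1. The promoter peak of Efna4 had the lowest enrichment of any member promoter, 4.40, with 31.2 treatment reads. The nearest peak to a TSS of Efna1 was 8920 bp away, just past the end of that gene, and was assigned to Slc50a1.

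Each of the class B ephrins, which also signal backward into the cell that carries them, had a promoter peak. Efnb1, on the X chromosome, had the highest enrichment among them, 10.7 from 37 treatment and 6.50 input reads at chrX:99135551-99137350, in the first exon. Efnb3 had a peak 37 bp downstream of its TSS with an enrichment of 9.50 and another in its last exon with 9.85, both within 5 kb of the TSS in a gene that is 7.06 kb long. Efnb2, a marker of arteries, had the most reads among the ephrins: its promoter peak at chr8:8658351-8662500, in the first intron, had an enrichment of 7.40 from 162 treatment and 45.7 input reads. Its 3 other peaks all lay downstream and had enrichments below 4. The intronic one at chr8:8619401-8622650 had an enrichment of 3.95 from 46 treatment and 22.5 input reads. Beyond the gene, chr8:8494601-8497350 was 165 kb downstream of the TSS, with an enrichment of 3.50 from 29 treatment and 16.5 input reads. The farthest, chr8:7787451-7788600, was 873 kb downstream of the TSS on a LINE-1 element and had an enrichment of 3.35 from 26 treatment and 15 input reads.

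The semaphorins are ligands with a shared sema domain, secreted in class 3 and membrane-bound in classes 4 to 7. Of the 20 genes, 17 had a peak and 14 a promoter peak, with 28 peaks in all and a median enrichment of 6.71. The class 6 genes had the most peaks per gene, and in class 3 the promoter peaks were at compact genes.

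In class 3, the genes without a promoter peak were Sema3a, the classical growth cone repellent, with Sema3c, Sema3d, Sema3e and Sema3g. Sema3a, Sema3c, Sema3d and Sema3e are long genes within 5.35 Mb of chr5, where 14 peaks had their centres. Of these, 12 were on LINE-1 elements, as were 14.2% of all peaks. The stretch had 2.62 peaks per Mb beside 6.40 over the whole genome. The other stretches of neighbouring member genes that were counted, all shorter, had 32.3 to 97.5 peaks per Mb. These rates rest on 3 to 11 peaks in stretches of 31.5 to 309 kb that were cut at the ends of the genes. Sema3a and Sema3c had no assigned peak. The 2 peaks of Sema3d and the 1 of Sema3e, with enrichments between 4.60 and 8.35 and 28.5 treatment reads or fewer, were all on LINE-1 elements.

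The other class 3 genes are compact. Sema3b, which lies near Sema3f on chr9 in a stretch of 113 kb with 11 peaks, had the highest enrichment at a class 3 promoter, 6.25 from 37 treatment and 13.5 input reads at chr9:107604451-107606050, 152 bp downstream of its TSS. Its further peaks had enrichments of 5.30 upstream and 6 in the last intron. Sema3f, a ligand of neuropilin 2, had a promoter peak with an enrichment of 6.05 and an intronic one with 9.65. The latter was 9325 bp downstream of the TSS used in the list, though 4441 bp from another RefSeq TSS of the gene. Sema3g had 1 peak, in its intron 14, with an enrichment of 6.70 from 44.5 treatment and 13 input reads.

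In class 4, 5 of 6 genes had a promoter peak. Sema4c, a ligand of plexin B2, stood out by both measures, with an enrichment of 10.5 from 142 treatment and 28 input reads at chr1:36555301-36559450, which covers the first exon. The promoters of Sema4b, Sema4d, Sema4f and Sema4g had enrichments between 4.82 for Sema4g and 7.95 for Sema4b. Sema4d, known for its role on lymphocytes, had 63.4 treatment reads at its promoter. One of 2 further Sema4b peaks lay 11.6 kb downstream of the deposited TSS but 113 bp upstream of another RefSeq TSS, and had an enrichment of 6.71. Sema4a had no assigned peak, and yet a peak with 73.5 treatment reads covered its last exon and was assigned to the microRNA gene Mir7011.

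Class 5 semaphorins carry thrombospondin repeats beside the sema domain. The promoter peak of Sema5b held the most treatment reads of all 123 member peaks, at rank 45 of the 17435 peaks, with an enrichment of 8.96 from 224 treatment and 57.9 input reads. It extended over 4250 bp at chr16:35540001-35544250, with its centre 763 bp downstream of the TSS in the first intron. Its enrichment ranked 3713 in the list, and its input reads were the most of any member promoter. Sema5a, the other gene of the class, had 53.2 treatment reads and an enrichment of 8.28 at its promoter.

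The class 6 semaphorins are transmembrane ligands of plexins A. Sema6c had the highest enrichment of any member promoter, at chr3:95159851-95162050, in the first intron 530 bp downstream of the TSS, 14.6 from 48.4 treatment and 6.43 input reads. A further Sema6c peak over the last coding exon had 122 treatment reads and an enrichment of 6.23. Reads and enrichment thus ranked the peaks of this gene in opposite order.

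Sema6d, which acts in heart development as well, had peaks at 2 annotated promoters that lie far apart in a gene of 578 kb. The upstream one at chr2:124089351-124091500 had an enrichment of 13.2 from 76.6 treatment and 12.4 input reads. The internal one at chr2:124609351-124611350, over the first exon of shorter transcripts, had an enrichment of 13.3 from 54.7 treatment and 8.14 input reads. The enrichments were close to each other, and both were above the upper quartile of all peaks, 8.53. Sema6a, with a peak of 5150 bp at its promoter, had 125 treatment and 44 input reads, which gave an enrichment of 5.43.

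Sema6b, a repellent for sympathetic axons, had 4 peaks around 2 annotated TSSs. From upstream to downstream of the gene on the minus strand, chr17:56148351-56149750 had an enrichment of 6.95 from 32.5 treatment and 9 input reads. The next, chr17:56140901-56143100, had an enrichment of 6.97 from 69.1 treatment and 20.3 input reads. In the first intron, chr17:56136651-56140850 had an enrichment of 6.71 from 81.3 treatment and 24.1 input reads. These 3 and the last, chr17:56133901-56136550, with an enrichment of 6.50 from 54.5 treatment and 18 input reads, differed little in enrichment, from 6.50 to 6.97. Sema7a, the lipid-anchored member that signals through plexin C1 and integrins, had 1 peak at chr9:57939501-57941550, 390 bp downstream of its TSS, with an enrichment of 6.60 from 62 treatment and 19.2 input reads.

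The Slits are large secreted repellents of the midline, and all 3 genes had a promoter peak. That of Slit2 at chr5:47982401-47986900 had an enrichment of 8.27 from 108 treatment and 25.6 input reads, the most among Slits and Robos. Slit3 and Slit1 had enrichments of 7.04 and 5.96 at their promoters, with 47.8 and 57.2 treatment reads. Slit2 also had 2 peaks 819 and 787 kb upstream, both on LINE-1 elements, with enrichments of 5.23 and 3.37.

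Netrins are laminin-related secreted cues. Ntn1, the attractant of commissural axons, had an enrichment of 7.20 from 119 treatment and 34.1 input reads at chr11:68384351-68387800, centred in its exon 2, 751 bp downstream of the TSS. A further peak 13.2 kb upstream had 52 treatment reads and an enrichment of 8.22. Ntn4, a netrin of basement membranes, had a promoter peak with an enrichment of 6.70, and the peak of Ntn3 was 2663 bp upstream with 5.83. Ntn3 is also overlapped by a peak of 194 treatment reads that was assigned to its neighbour Tbc1d24. Ntn5 had no assigned peak, while a peak over its last coding exon was assigned to Sec1.

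**Figure D2:**
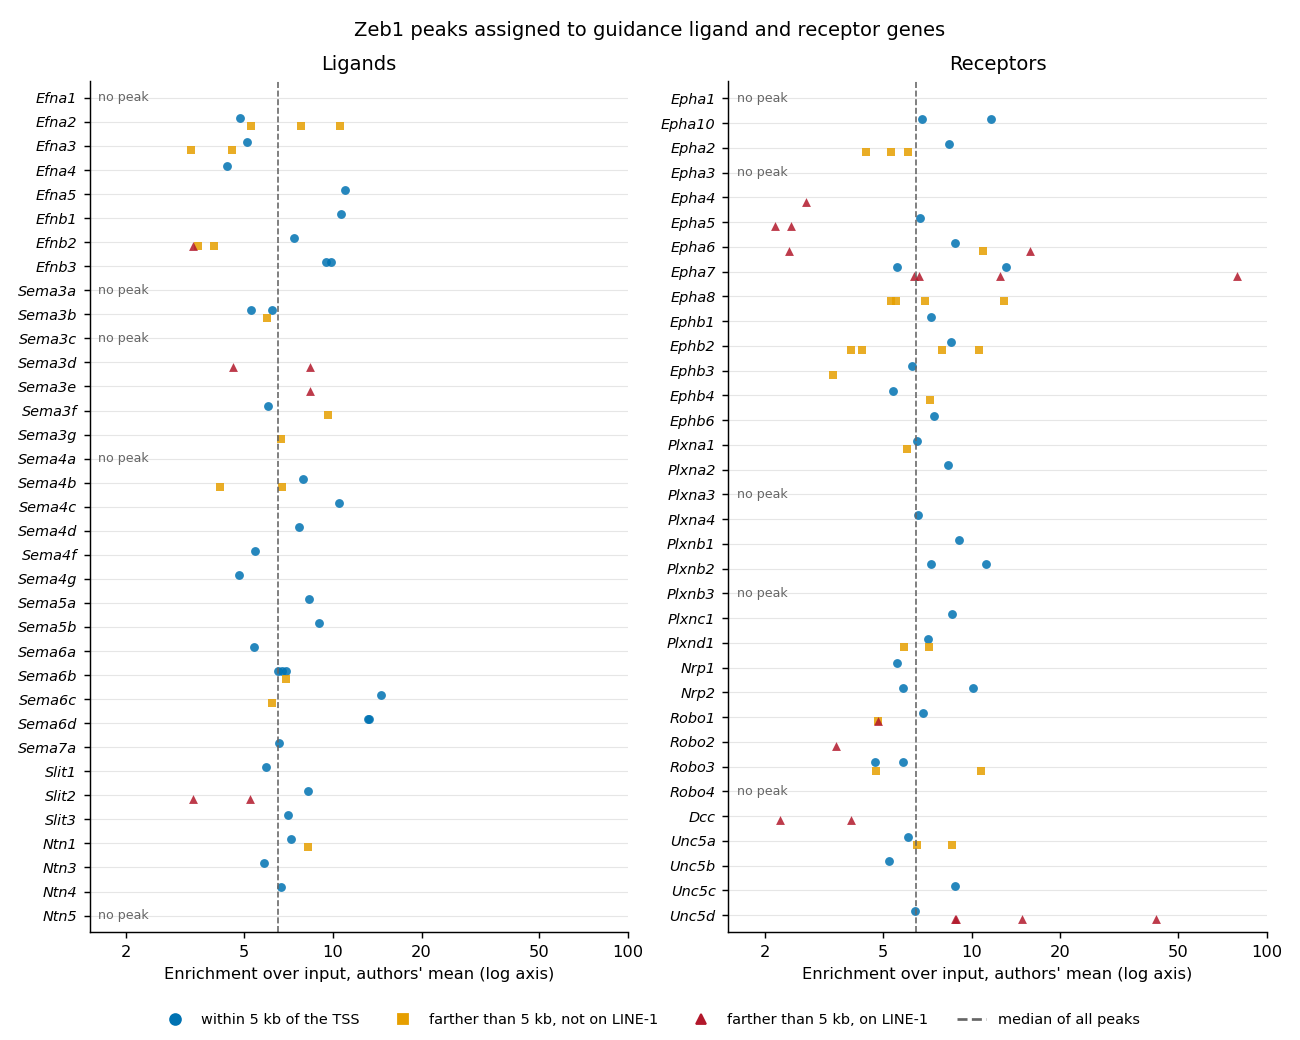
Enrichment over input (the authors' mean, log axis) of each Zeb1 peak, by the ligand or receptor gene to which it was assigned; circles are promoter peaks, squares other peaks farther than 5 kb, and triangles peaks farther than 5 kb on LINE-1 elements, and the dashed line is the median of all peaks, 6.50. Promoter peaks lie between 4.40 and 14.6, whereas LINE-1 peaks run from 2.15 to 79.3; Unc50 and Unc5cl are not drawn.

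Among the receptors, the Eph receptors form the largest family of receptor tyrosine kinases, and 12 of 14 genes had peaks, 35 in all. Class B was covered throughout, with a promoter peak at each of its 5 genes. In class A, 5 of 9 genes had a promoter peak, and Epha1 and Epha3 had no peak. For Epha3 the nearest peak of any gene was 586300 bp away from the TSS.

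Epha7, a receptor of the developing cortex, had the most peaks of any member gene, 6, and the highest single enrichment. Its promoter is covered by a pair of adjoining peaks. The one over the first exon, chr4:28812301-28814400, had an enrichment of 5.60 from 49.5 treatment and 17 input reads. The one in the first intron, chr4:28814451-28816000, had fewer reads but a higher enrichment, 13.1 from 46 treatment and 7 input reads. The 4 others lay upstream on LINE-1 elements, and they differed more in enrichment than in treatment reads. The peak at chr4:28461001-28462350, 351 kb upstream, had rank 3 in enrichment among all 17435 peaks, 79.3 from 36.7 treatment and 1 input read. Its treatment reads ranked only 12560. Divided directly, its averaged reads had a ratio of 36.7, and with 1 read added to both values it was 18.8, so that the ratio of this peak was sensitive to 1 added read. Nearer to the gene, chr4:28746101-28747500, 66.3 kb upstream, had an enrichment of 12.5 from 35.5 treatment and 5.50 input reads. The peak chr4:28661051-28662600, 151 kb upstream, had an enrichment of 6.40 from 42 treatment and 13 input reads. The farthest peak of all members, chr4:27865501-27866650, was 947 kb upstream of the TSS and had an enrichment of 6.65 from 23 treatment and 8 input reads.

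Epha6 spans 969 kb, and its 4 peaks lay at or upstream of its TSS. The promoter peak at chr16:60604451-60607000 had an enrichment of 8.76 from 61.2 treatment and 15.2 input reads. A LINE-1 peak 227 kb upstream, at chr16:60832101-60833200, had an enrichment of 15.8 from 24 treatment and 3 input reads. Another LINE-1 peak, 248 kb upstream at chr16:60853351-60854600, had an enrichment of 2.4 from 34.5 treatment and 35 input reads, so that these elements, of the subfamilies L1Md_T and L1Md_A in this order, differed in input and in enrichment. The last, at chr16:61257251-61259350, 653 kb upstream on an LTR retrotransposon, had an enrichment of 10.9 from 43.5 treatment and 7.50 input reads.

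Epha8 was unlike the other genes with 4 peaks in that it had none at the promoter. The peak at chr4:136944101-136946700, in intron 3, had the highest enrichment of any member peak that was neither at a promoter nor on a LINE-1 element, 12.9 from 74.5 treatment and 12 input reads. In the same intron, chr4:136942151-136943600 had an enrichment of 6.95 from 28.5 treatment and 8 input reads. These neighbouring intronic peaks differed in both reads and enrichment. Farther into the gene, chr4:136934051-136937000 in intron 7 had an enrichment of 5.34 from 42 treatment and 16.3 input reads. The last, chr4:136994701-136995900, lay 38.5 kb upstream within the neighbouring gene Zbtb40 and had an enrichment of 5.55 from 20 treatment and 7 input reads.

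Epha2, a receptor widely expressed in epithelia, had a promoter peak at chr4:141300751-141303350 with an enrichment of 8.40 from 77.6 treatment and 20 input reads. Of its other peaks, chr4:141290401-141292450, 9796 bp upstream, had an enrichment of 6.09 from 56.9 treatment and 18.1 input reads. Over exon 3, chr4:141308151-141309600 had an enrichment of 5.33 from 37 treatment and 14.7 input reads. Treatment reads were highest at the promoter. Past the end of the gene, chr4:141328301-141331050 had an enrichment of 4.40 from 32 treatment and 14 input reads. Enrichment along Epha2 was likewise highest at the promoter and lowest past the end of the gene.

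The remaining class A receptors were Epha10, Epha5 and Epha4. Epha10, which lacks kinase activity, had promoter peaks with enrichments of 6.80 and, over exon 3, 11.6. Epha5 had an enrichment of 6.71 from 32.3 treatment and 10.9 input reads at its promoter. It also had 2 LINE-1 peaks far upstream. Their enrichments were 2.15, the lowest of all members, from 43 treatment and 48 input reads, and 2.45 from 70.5 treatment and 66.5 input reads. Epha4, a receptor for ephrins of both classes, had a single LINE-1 peak 282 kb upstream with an enrichment of 2.75.

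Ephb2, with roles in midline crossing and synapses, had the most reads among Eph receptors. Its promoter peak at chr4:136833451-136837500, with its centre in the first intron, had the highest enrichment of class B promoters, 8.54 from 142 treatment and 34.8 input reads. The other 4 peaks lay within the gene and had fewer reads. In the first intron, chr4:136783251-136784500 had an enrichment of 7.95 from 32.5 treatment and 8 input reads. The peak chr4:136776251-136777400 had an enrichment of 10.6 from 27 treatment and 5 input reads. Between both, chr4:136778701-136781250 had an enrichment of 3.90 from 42 treatment and 20.5 input reads. The 3 lay 52.1 to 59.2 kb from the TSS. In intron 3, chr4:136753951-136756400 had an enrichment of 4.25 from 36.5 treatment and 16.5 input reads. A further 2 peaks inside Ephb2 were assigned to Lactbl1, so that 7 peaks overlapped this gene, which lies beside Epha8 in a stretch of 309 kb with 10 peaks and none on a LINE-1 element.

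The other class B receptors had promoter enrichments between 5.40 for Ephb4, a marker of veins and receptor of Efnb2, and 7.46 for Ephb6, whose kinase domain is inactive. Ephb1 had 85.3 treatment reads and an enrichment of 7.31, and Ephb3 had 73 treatment reads and 6.27. Ephb4 and Ephb3 each had 1 more peak inside the gene, with enrichments of 7.25 and 3.40. Ephb1 had no other assigned peak in a gene of 433 kb.

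Plexins are the signalling receptors of semaphorins, and 7 of 9 genes had a promoter peak. The 2 without any peak, Plxna3 and Plxnb3, are both on the X chromosome, with the nearest peak of any gene 292859 and 83428 bp from their TSSs. Plxnb2, a receptor of class 4 semaphorins, had the highest enrichment, at chr15:89172301-89175500, 51 bp downstream of 1 of its TSSs, 11.2 from 86.4 treatment and 15.7 input reads. At its other TSS the enrichment was 7.30. Inside the gene, 2 further peaks over coding exons were assigned to the microRNA gene Mir7118.

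Plxnc1 and Plxnd1 were the plexins with most reads. Plxnc1, the receptor of Sema7a, had an enrichment of 8.61 from 139 treatment and 32.3 input reads at chr10:94942301-94946000, centred in its first exon. Plxnd1, a receptor in vessel growth that binds Sema3e, had an enrichment of 7.13 from 131 treatment and 38.3 input reads at chr6:115992751-115996650, likewise centred in the first exon. Toward its middle were 2 more peaks, with enrichments of 7.16 and 5.90. The promoters of Plxna1, Plxna2, Plxna4 and Plxnb1 had enrichments between 6.51 and 9.03, with 66.7 to 102 treatment reads.

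The neuropilins bind class 3 semaphorins and VEGF and lack a signalling domain of their own. Nrp2 had a peak at its TSS with an enrichment of 5.86 and one with a higher enrichment in its first intron. The latter, at chr1:62705651-62708000, had an enrichment of 10.1 from 90 treatment and 17.2 input reads. Nrp1 had 57.2 treatment reads and an enrichment of 5.58 at its promoter.

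Of the Robo receptors, which read Slits, Robo1 and Robo3 had promoter peaks. That of Robo1 at chr16:72662501-72664300 had an enrichment of 6.83 from 52.7 treatment and 15.3 input reads, the highest enrichment in the family at a promoter. The gene had 2 more peaks, each with an enrichment of 4.80, and both outside it. They were 640 kb upstream of the TSS on an LTR retrotransposon and 691 kb downstream of it on a LINE-1 element. Robo2, with a length of 1555 kb the longest of all member genes, had 1 peak on a LINE-1 element, with an enrichment of 3.46 from 26 treatment and 17 input reads.

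Robo3, a divergent Robo of commissural axons, had 4 peaks in and near a gene of 17.4 kb. Those at the promoter had few reads, with an enrichment of 5.86 from 28.7 treatment and 10.4 input reads at chr9:37432151-37433600 and with an enrichment of 4.7 from 30.2 treatment and 14.4 input reads at chr9:37428951-37430300. Over exon 19, chr9:37417751-37422350 had an enrichment of 4.75 from 62 treatment and 24 input reads. The peak chr9:37459551-37461350, 27.3 kb upstream, had the highest enrichment of the family, 10.8 from 71.3 treatment and 13.3 input reads. Robo4, the Robo of vessels, is the neighbour of Robo3 and had no assigned peak, and the nearest peak to its TSS was that over exon 19 of Robo3.

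The netrin receptors differed by family. Each of the 4 Unc5 receptors, which mediate repulsion, had a promoter peak, with enrichments between 5.24 for Unc5b and 8.80 for Unc5c. The peak of Unc5c at chr3:141464251-141466300, 289 bp upstream, had an enrichment of 8.80 from 51.2 treatment and 12.6 input reads. Unc5a had 84.8 treatment reads at its promoter, and 2 further peaks with enrichments of 8.55 and 6.55. Another 3 peaks inside Unc5a, with up to 100 treatment reads, were assigned to its neighbour Hk3.

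Unc5d had 5 peaks, and 4 of them were on LINE-1 elements. The promoter peak at chr8:29218501-29220400 had an enrichment of 6.41 from 44.7 treatment and 15.7 input reads. At chr8:29347601-29349000, 129 kb upstream, was the enrichment that came next after that of Epha7 among members and at rank 34 in the list, 42.1 from 37.4 treatment and 2 input reads. Close by, chr8:29359901-29361200 had an enrichment of 14.8 from 30.5 treatment and 5 input reads. The input at both peaks was below the median of the list, 16 reads. The outermost, chr8:29415301-29416700, had an enrichment of 8.86 from 45.4 treatment and 10.4 input reads. Within the first intron, chr8:29193601-29195350 had an enrichment of 8.80 from 38 treatment and 10 input reads and the most CACCTG matches of any member, 9 in the central 1000 bp.

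Dcc, the receptor for attraction to netrin, spans 1098 kb and had no promoter peak. Both of its peaks were on LINE-1 elements. That in the first intron had an enrichment of 2.25 from 51.5 treatment and 54.5 input reads, so that input reads outnumbered treatment reads. They also did so at a LINE-1 peak of Epha5 and at another of Epha6. The one 228 kb upstream of the TSS had an enrichment of 3.90 from 26 treatment and 13 input reads.

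**Figure D3:**
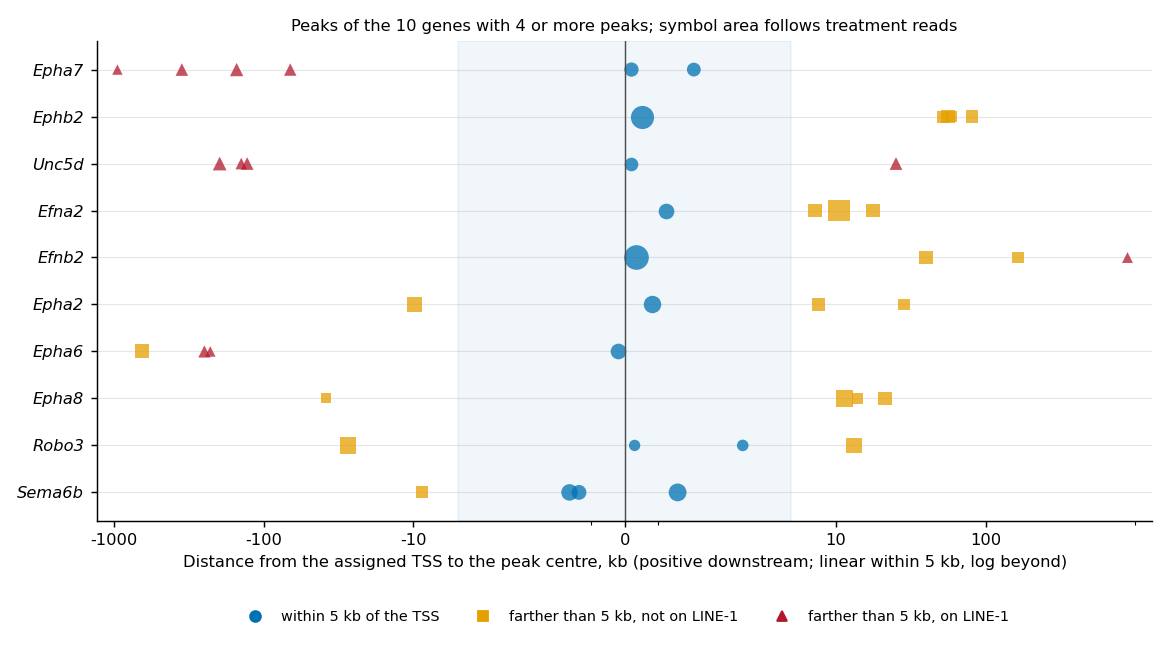
Distance in kb from the assigned TSS to the centre of each peak (positive downstream, linear within 5 kb and logarithmic beyond) for the 10 genes with at least 4 peaks; symbol area grows with treatment reads, and the shaded band is the 5 kb on either side. Epha7, Unc5d and Epha6 have their LINE-1 peaks mostly upstream, up to 947 kb away, whereas the peaks of Ephb2 lie within the gene and none of those of Efna2 and Epha8 is on a LINE-1 element.

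Among members, the 10 peaks with the highest enrichment and the 10 with most treatment reads were different peaks. Of the 10 member peaks with the highest enrichment, 5 were on LINE-1 elements and 4 at promoters, and 8 had fewer than 10 input reads. Of the 10 with most treatment reads, 9 were at promoters and none on a LINE-1 element. The peaks with most reads were 3500 to 5500 bp long, against 1100 to 2600 bp for those with the highest enrichment. The same counts for the top peaks of the whole list are not given here. In the list, input was below 5 reads at 182 of 2451 LINE-1 peaks farther than 5 kb. It was so at 47 of 10698 promoter peaks and 75 of 4286 others. For members it was so at 3 of 23, 0 of 63 and 0 of 37. Across the 123 peaks, the Spearman correlation between treatment reads and length was 0.78, and that between enrichment and treatment reads was 0.29, beside 0.67 and 0.41 across all peaks. Enrichment and reads were thus positively correlated, although the peaks at the top differed. Enrichment and input reads per kb, whose reads are the denominator of the enrichment, had a correlation of -0.61, beside -0.66 across all peaks. These are correlations across peaks of the same libraries and not across samples.

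**Figure D4:**
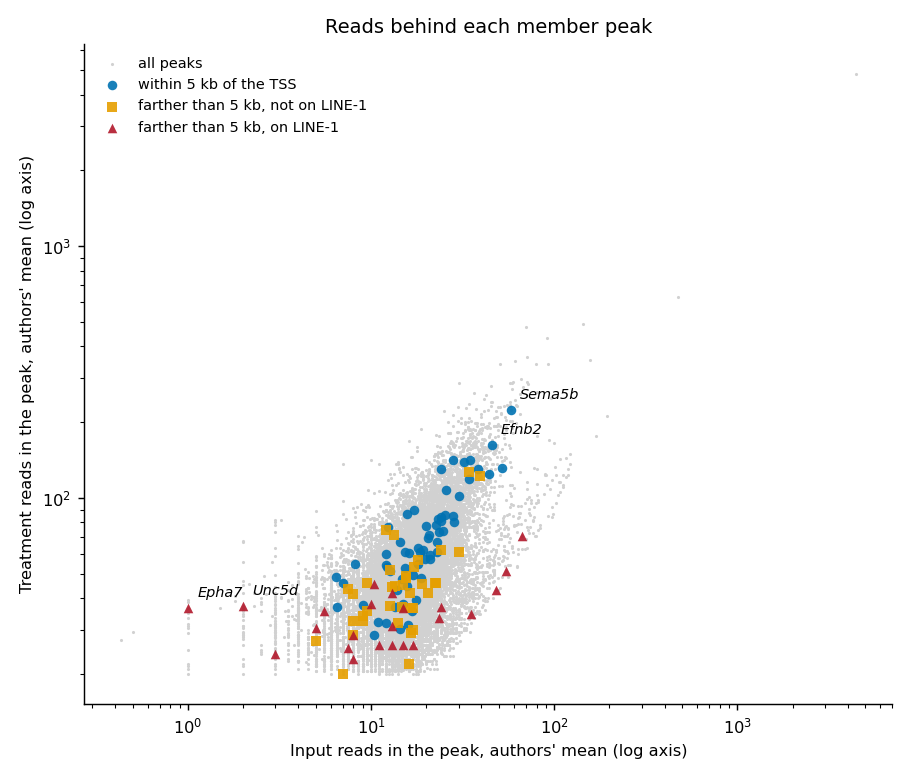
Mean treatment reads against mean input reads in each peak (both log axes), for all peaks with input reads above 0 (grey) and for the 123 member peaks by class. Promoter peaks follow the main cloud up to Sema5b with 224 treatment reads; LINE-1 peaks of members span 1 to 66.5 input reads at 23.0 to 70.5 treatment reads.

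LINE-1 elements are retrotransposons present in many near-identical copies. Of the 123 member peaks, 23 were centred on one (18.7%, interval 12.8 to 26.5%), against 14.2% of all peaks. Among peaks farther than 5 kb from the TSS, the share was 38.3% for members (interval 27.1 to 51.0%) and 36.4% for all, and so it was near that of the whole list. The 23 peaks were assigned to 12 genes, of which Dcc, Epha4, Robo2, Sema3d and Sema3e had no other peak. These 5 genes are 148 to 1555 kb long, with a median of 231 kb, whereas the 53 genes with a promoter peak had a median of 46.3 kb. Of the 23, 21 were more than 100 kb from the TSS (91.3%), against 53.0% of all LINE-1 peaks farther than 5 kb. Peaks of any class at such distances made up 19.5% of members against 9.99% of all peaks.

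The reads behind the LINE-1 peaks of members varied mostly in the input. Their treatment reads had quartiles of 26.0 and 37.7, beside 28 and 47.1 for all such peaks. Their input reads had quartiles of 7.75 and 20.2, beside 8.20 and 23.0. The subfamilies were L1Md_T for 10 peaks and L1Md_A for 7, with L1Md_Gf, L1Md_F and L1Md_F2 at the rest. The authors kept unique alignments only, and how far the copies of an element share reads was not tested.

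The centres of the 63 promoter peaks of members were at a median of 456 bp from the TSS, beside 235 bp for all promoter peaks. They lay 0 to 500 bp downstream of the TSS in 42.9%, against 56.2% for all promoter peaks, and 500 to 1000 bp downstream in 17.5% against 8.65%. By RefSeq models, 25 of the 63 centres were in the first intron, 17 in a 5′ UTR exon, 14 upstream of the TSS and 7 in a coding exon. The median length was 2350 bp for promoter peaks of members and 1950 bp for all. Per kb of peak, the median of treatment reads was 25.6 for members and 26.8 for all.

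The 37 peaks that were neither at promoters nor on LINE-1 elements lay mostly inside the gene. Of their centres, 19 were in introns, 4 in coding exons and 1 in a 3′ UTR, with 4 downstream of the gene and 9 upstream of a RefSeq TSS. Of these 9, that at Sema4b lay inside the gene, upstream of an internal TSS. The same places are not given here for the whole list. By the deposited distances, 29 of the 37 lay downstream of the TSS and 8 upstream. In the list, 2677 of 4286 such peaks lay downstream and 1609 upstream. The median enrichment of the 37 was 6.09, close to the 6.16 of such peaks in the whole list. Ephb2, Epha8, Efna2 and Epha2 alone held 14 of the 37.

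The median base composition of the central 1000 bp differed between the classes. Promoter peaks of members had a median of 63.2% G and C and an observed over expected ratio of CpG of 0.671, beside 62.1% and 0.740 for all promoter peaks. Those on LINE-1 elements had 48.2% and 0.340, beside 47.6% and 0.340 for all such peaks. The other distal peaks had 56.9% and 0.385, beside 57.0% and 0.405, so that members were near the list in each class.

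**Figure D5:**
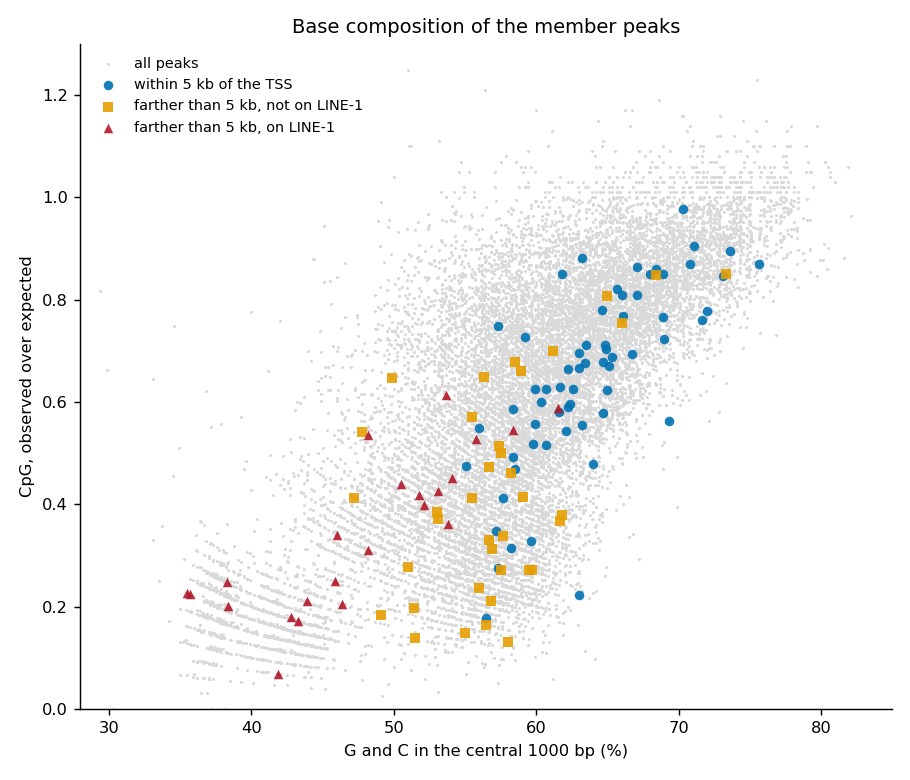
Observed over expected CpG against the percentage of G and C in the central 1000 bp of each peak, for all peaks (grey) and member peaks by class. Promoter peaks of members gather at the upper right, around medians of 63.2% and 0.671, and LINE-1 peaks at the lower left, around 48.2% and 0.340.

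The letters CACCTG, or CAGGTG on the other strand, were in the central 1000 bp of 81 of the 123 member peaks (65.9%, interval 57.1 to 73.6%), against 63.1% of all peaks. At promoter peaks the shares were 63.5% for members and 60.3% for all. The longer forms CNCACCTG, CNTACCTG, TNCACCTG and TNTACCTG, of which those with CACCTG overlap the shorter motif, were in 55.3% of member peaks (interval 46.5 to 63.8%) and 55.4% of all. These shares of members in the central 1000 bp were thus near those of the list. Other settings differed more. At promoters the longer forms were in 47.6% of member peaks and 53.0% of the list. In the central 200 bp CACCTG was in 29.3% of member peaks and 21.8% of the list. Among peaks with an enrichment of at least 5, it was in the central 1000 bp of 72.2% of members and 64.2% of the list. In 300-base windows from 250 bases before to 50 after the TSS, from RefSeq, the 6 letters were in 11 of 77 windows (14.3%), which were found for 61 of the 71 member genes, against 20.2% of all windows. No match says only that these letters are not in that window.

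The member peaks richest in these letters were on LINE-1 elements. At least 5 matches in the central 1000 bp were found in 5 member peaks, which belonged to Unc5d with 2 peaks and to Epha5, Sema3e and Slit2, and all 5 were on LINE-1 elements. Over all peaks 632 had as many matches (3.62%), and 452 of them were on such elements. At promoter peaks of members the highest number was 4, and in 42 member peaks there was no match in that window.

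The gene named for a peak is the one with the nearest TSS, and some peaks inside member genes carry another name. In all, 34 peaks named for another gene overlapped a member gene or the 5 kb on either side of it, and 23 of these had their centres inside 1 of 17 member genes. Of the 23, 13 were over exons and 7 were assigned to microRNA genes, some of which lie inside their host. Slit3, for instance, hosts Mir218-2, to which a peak with an enrichment of 3.80 in a Slit3 intron was assigned. At the 3′ end of Slit1 a peak with 79.7 treatment reads was assigned to Mir8091. Sema5b held a peak with 122 treatment reads over coding exons near its end, assigned to Dirc2, and Plxnd1 one with 125, assigned to H1foo. Whether any of these peaks bears on the gene it overlaps or on the gene it is named for was not tested.

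Of the 11 genes without an assigned peak, most are short. Their lengths ran from 9.22 to 479 kb with a median of 16.4 kb. Efna1, Epha1, Ntn5, Plxna3, Plxnb3, Robo4 and Sema4a are compact genes, and Epha3, Sema3a and Sema3c are long. The last is Unc5cl, which resembles the Unc5 receptors in part of its sequence and acts in epithelial signalling.

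Genes that work with these ligands and receptors were counted by group, and over all protein-coding genes 51.4% had a peak and 43.5% a promoter peak. Of 23 co-receptors and other ligands, 18 had a peak and 15 a promoter peak. Among them the Dcc relative Neo1 had an enrichment of 11.5 at its promoter with 70.9 treatment reads, and Nell2, a ligand of Robo3, had 15.4 with 89.0. Flrt3 and Lrrc4c had 4 and 6 peaks, all on LINE-1 elements. Of 18 kinases and effectors, 15 had a peak, among them Crmp1, a mediator of Sema3a signals, with 12.7 at its promoter. These counts are of chosen groups and give no share for all such genes.

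Unc50, taken by its letters, had 1 promoter peak with an enrichment of 7.34 from 78.1 treatment and 22.7 input reads at chr1:37429251-37431400. Its enrichment was within the range of the promoter peaks of guidance genes, and the median enrichment of the 122 other peaks was also 6.70.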

How the data were processed

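Zeb1 ChIP-seq of D3 mESC in GS comprised 3 ChIP libraries and 1 input library. The authors trimmed reads, drew 30 M at random for each sample, aligned them to mm10 with STAR 2.4.2a, removed duplicates with Picard 1.136, called peaks against the input, kept those with at least 20 treatment reads and an enrichment of at least 2, unified peaks found in at least 2 libraries, and annotated them with HOMER 4.7 (versions from the submitters' processing notes). The deposited read columns are a signal, averaged by the authors, and the deposited enrichment is a ratio averaged likewise. The deposited p-value was 0 throughout and was not used. Distances are positive downstream of the TSS, which is the sign of the deposited values against RefSeq (within 100 bp at 110 of 123 member peaks).

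Gene models and sequence came from RefSeq on GRCm38.p6. Peaks were placed by their centre, LINE-1 elements were taken from the deposited annotation, and motifs were counted in 1000 bp on both strands. Shares have 95% Wilson intervals and no test was made on the members. The motif count was tested on simulated sequences, the placing within a gene model on a made-up transcript, and the member rule on a few gene symbols. The other steps were not tested in this way. Members and lists were chosen with earlier results of these data known. Full values were given for the 10 peaks with the highest enrichment, the 10 with most treatment reads, the promoter peak with the highest enrichment in each family, and the peaks of the 5 genes with most peaks, where a tie made these 10 genes. Other members are given by fewer values. Neighbouring genes, examples among the other guidance genes and the peaks richest in CACCTG were named after their values were seen. A further group of the other guidance genes was counted and is not reported here, and so no share over all groups is given. Alternatives changed the assignment, thresholds, windows and ratio. The computation ran in pandas 2.3.3, matplotlib 3.10.9, SciPy 1.17.1 and NumPy 2.4.6 under Python 3.11.15.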

Additional observations from a re-analysis of the deposited data

How the results depend on the processing

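Over 6 results and 26 alternatives, 18 values were within 1.5 times the count reported or within the 95% interval of the share or median, and 8 were outside it. The median enrichment, 6.70 (interval 6.25 to 7.16), was 7.81 with the most enriched peak of each gene only, beside 7.07 for all gene names. Dividing the averaged treatment reads by the averaged input reads gave 3.23, beside 3.12. With 1 added to both it was 3.09, beside 3.00. Both divisions leave out the authors' scaling and their averaging of ratios, which were not told apart. The share of member peaks within 5 kb of the TSS, 51.2%, was 60.8% at an enrichment of at least 5 and 63.0% without LINE-1 peaks, beside 67.1% and 71.3% of all peaks. The share with CACCTG, 65.9%, was 87.0% in whole peaks, 29.3% in the central 200 bp and 55.3% for the 8-base forms, beside 82.1%, 21.8% and 55.4%. Whole peaks are longer windows and the central 200 bp shorter ones; the cause of the other differences was not tested. The number of member peaks ran from 97 to 128, that of genes with a peak from 55 to 62 and that of genes with a promoter peak from 46 to 54. Leaving out LINE-1 peaks or Unc50 and dividing without an added read were chosen after seeing the data. No paired analysis was possible because the list holds no value for single libraries, and for the same reason no library could be left out. The mapped reads of each library were not analysed here, and the member peaks with enrichments above 15 had 3 input reads or fewer.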
